A study of Mus musculus with 15 samples.

Results

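Adipocytes secrete hormones, growth factors and carrier proteins, and they also hold large amounts of a few enzymes. The 7 genes described here encode 6 secreted products, adiponectin (Adipoq), leptin (Lep), resistin (Retn), neuregulin 4 (Nrg4), retinol binding protein 4 (Rbp4) and adipsin (Cfd), and 1 cytosolic enzyme, carbonic anhydrase 3 (Car3). They were chosen by name, with earlier results of these data known, and all 7 were found among the 35373 genes of the count table. All 7 passed the filter on low counts that left 16935 genes for testing, and the smallest count of any of them in any library was 94 (Nrg4).

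RNA was sequenced from intradermal adipocytes, the fat cells of the skin, taken as the floating fraction of collagenase-digested mouse dorsal skin. There were 15 libraries in 4 groups. Controls at postnatal day 23 (P23, n = 3) and at P26 (n = 3) had no Cre but carried Rosa26rtTA on both alleles and 1 TetOBcat transgene. Mice given 2 days (P23, n = 4) or 5 days (P26, n = 5) of Wnt activation carried EngrailedCre/+ besides those same alleles, so that doxycycline switches on β-catenin in the lineage marked by Engrailed. All mice, the controls included, received doxycycline in food (6 g/kg) and in water (2 mg/mL). What share of the isolated adipocytes belonged to that lineage is not given in the sources used here. Replicates were labelled as biological.

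Adiponectin is a hormone assembled into multimers in the endoplasmic reticulum, and it acts on the liver and muscle through the receptors Adipor1 and Adipor2. Leptin signals the size of fat stores to the hypothalamus, and its transcript is known to follow adipocyte size and feeding. Resistin is made by adipocytes in the mouse and in the human mainly by macrophages. In skin, the dermal adipocyte layer expands and shrinks with the hair cycle, and active Wnt/β-catenin signalling is known to hold back adipocyte differentiation.

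Total counts per library ranged from 11383421 to 38501753, with 13027 to 16663 genes detected and 3.69% to 31.7% of counts mitochondrial. All 12 adipocyte markers of the marker list, none of them among the 7 genes, were detected in every group. Their summed level was 33510 to 38780 CPM (the count relative to the normalised library size) in the P23 controls and 15040 to 29130 CPM at 2 days. It was 6680 to 34970 CPM in the P26 controls and 7935 to 26900 CPM at 5 days. Some libraries held more of other markers than of these. The library labelled P26 control replicate 1 had 7530 CPM of keratinocyte against 6680 CPM of adipocyte markers. Stromal markers summed to 82390 against 7935 CPM in 5-day replicate 5 and to 36280 against 8291 CPM in 5-day replicate 1. They were also above the adipocyte markers in 5-day replicate 2 (26070 against 20960 CPM). The same held for 2-day replicates 1 (23050 against 15040 CPM) and 3 (29480 against 27530 CPM). In each control the stromal sum was the lower. Some libraries also went against their labels in Axin2. Axin2, a feedback target read as a sign of Wnt activity, stood at 39.8 and 34.9 CPM in the libraries labelled P23 control replicate 1 and P26 control replicate 1. The other 4 controls held 4.17 to 9.07 CPM. Of the Wnt libraries, 8 held 27.6 to 65.0 CPM, but that labelled 2-day replicate 1 held 10.01 CPM. The authors' deposited sample sheet lists this last library as a control. In Ctnnb1, the gene of β-catenin, that library was highest of all, at 483.9 CPM, with 189.8 to 312.3 CPM in the P23 controls. The remaining 2-day libraries held 153.4 to 250.5 CPM of Ctnnb1. For P26 control replicates 1 to 3 it was 341.4, 238.7 and 165.1 CPM. Whether transgene reads were counted as Ctnnb1 was not tested. Groups follow the titles throughout. Values without the 3 libraries whose Axin2 goes against their label, a set chosen after seeing the data, are given beside each member's results.

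Promoters of 3 members are shown first. Lep followed the other members least, Adipoq is the reference adipokine, and Cfd had the highest level per length and followed Adipoq. The sequences are the 250 bases before the start of transcription, from RefSeq on GRCm38.p6, written 5′ to 3′ on the gene's strand. Capitals mark motifs, searched on both strands, and positions count back from the base before the start, which is -1.
Lep, chr6:29059971-29060220, plus strand: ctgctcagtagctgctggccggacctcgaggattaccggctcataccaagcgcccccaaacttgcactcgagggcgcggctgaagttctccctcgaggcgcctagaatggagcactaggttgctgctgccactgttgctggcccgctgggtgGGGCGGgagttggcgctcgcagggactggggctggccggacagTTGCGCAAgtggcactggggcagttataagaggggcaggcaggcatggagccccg
Adipoq, chr16:23146286-23146535, plus strand: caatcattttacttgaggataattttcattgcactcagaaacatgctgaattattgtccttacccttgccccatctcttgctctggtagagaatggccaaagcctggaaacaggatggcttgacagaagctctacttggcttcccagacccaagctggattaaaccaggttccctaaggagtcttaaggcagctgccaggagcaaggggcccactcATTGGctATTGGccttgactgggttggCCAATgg
Cfd, chr10:79890603-79890852, plus strand: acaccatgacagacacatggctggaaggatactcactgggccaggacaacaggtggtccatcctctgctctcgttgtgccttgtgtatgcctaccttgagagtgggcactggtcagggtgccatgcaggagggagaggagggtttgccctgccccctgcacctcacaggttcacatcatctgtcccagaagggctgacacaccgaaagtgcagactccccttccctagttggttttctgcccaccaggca

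In the Lep window the capitals are a C/EBP site, TTGCGCAA, at -55 to -48 and an Sp1 box, GGGCGG, at -98 to -93. The C/EBP letters occurred in 0.164% of 32851 RefSeq promoter windows of the same length, and the Sp1 letters in 32.7%. In the Adipoq window they are 3 CCAAT boxes, of which those at -34 to -30 and -27 to -23 lie on the minus strand and that at -7 to -3 on the plus strand. At least 1 CCAAT was found in 33.8% of windows. The Cfd and Retn windows held none of the 8 motifs searched. A further 3 of the motifs were TATAAA (12.4% of windows), the PPAR site AGGTCA (14%) and the PPAR element, which is a direct repeat of AGGTCA with 1 base between and so overlaps it (0.0335%). The last 2 were the TCF/LEF letters CTTTGAT (3.21%) and CTTTGTT (5.03%). The Nrg4 window held 2 AGGTCA on the minus strand, at -90 to -85 and -26 to -21. This window, chr9:55283626-55283875, precedes a RefSeq start inside the Nrg4 gene as counted (chr9:55220222-55326844, minus strand). It is not the window before the 5′ end of that gene. Rbp4 has 2 RefSeq starts. Its upstream window held CTTTGAT at -30 to -24 and CCAAT at -162 to -158, both on the minus strand. The downstream window held TATAAA at -28 to -23 and 2 Sp1 boxes. The windows of the 5 other members searched held no TCF/LEF match, and that of Car3 was not searched. A match is a run of letters and not a measured binding site, and its absence says only that those letters are not in the window.

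Together the 7 genes took 0.959% to 6.73% of all counts in a library (median 4.44%). Per length of exon, the mean level over the 15 libraries was 26349 RPKM (CPM divided by exon length) for Cfd, 4919 for Car3 and 2149 for Adipoq. It was 420 RPKM for Retn and 400 RPKM for Rbp4, followed by 73.2 RPKM for Lep and 10.1 RPKM for Nrg4. Each neighbouring pair in this order kept it in 15 of 15 libraries, except that Retn stood above Rbp4 in only 4 of 15, so those 2 levels were not told apart.

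**Figure D1:**
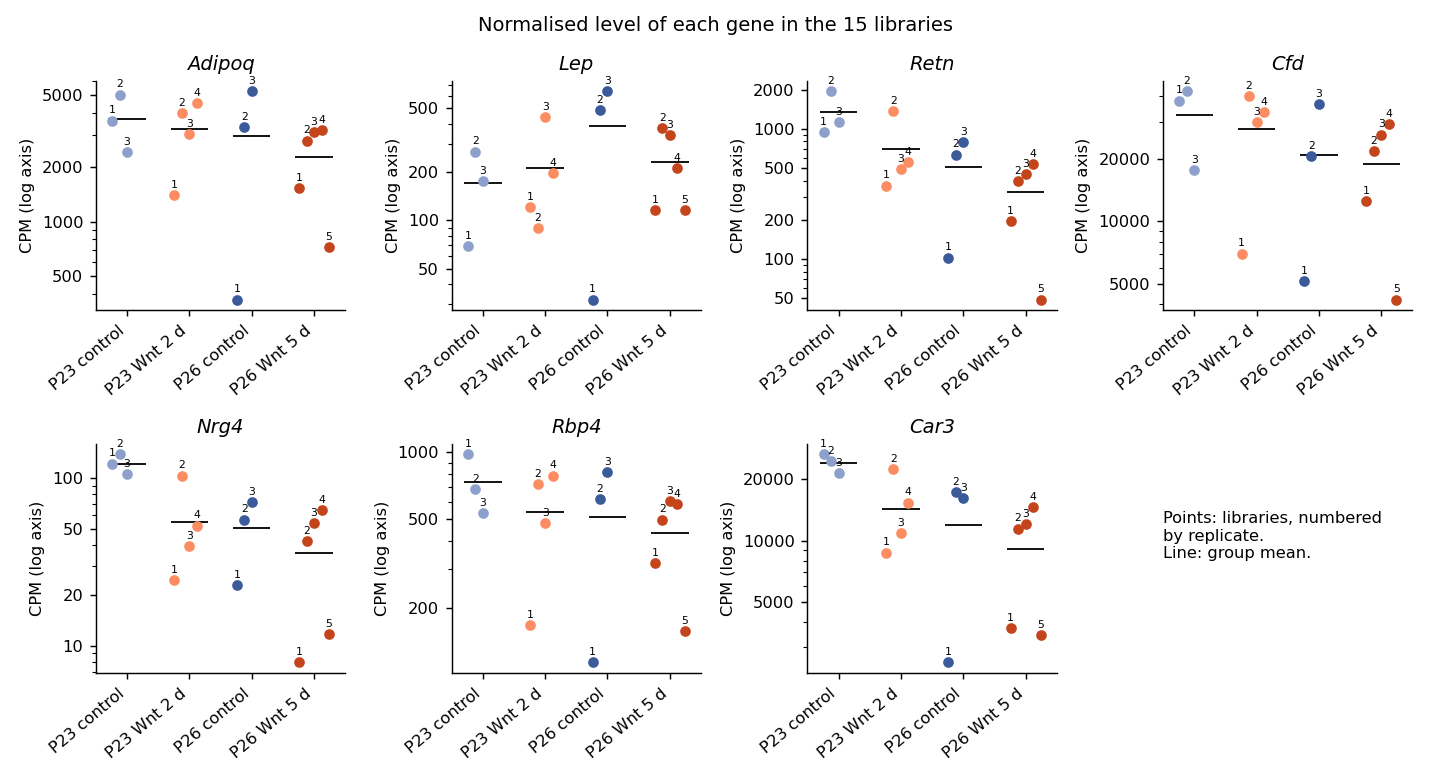
Normalised level (CPM, log axis) of each of the 7 genes in the 15 libraries, by group, with points numbered by replicate and a line at the group mean. The libraries labelled P26 control replicate 1 and 5-day replicate 5 sit lowest or near lowest for most genes, and the groups overlap except for Nrg4 at 2 days and for Retn, Nrg4 and Car3 between the control ages.

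No member was called as different between the Wnt libraries and their controls. Among the 7 genes, edgeR's quasi-likelihood test with Benjamini-Hochberg adjustment over all 16935 genes called 0 at 2 days and 0 at 5 days. The share called over all genes was 0% in both comparisons, so the count says nothing particular to these genes. At an unadjusted p under 0.05 the counts were 0 of 7 members in both comparisons, against 875 genes (5.17%) at 2 days and 1195 genes (7.06%) at 5 days. DESeq2 called 149 genes at 2 days and 200 at 5 days, none of them a member. The fitted log2 fold change was below 0 for 6 of 7 members at 2 days (median -0.44) and for 7 of 7 at 5 days (median -0.40). Over all genes tested the medians were 0 and 0.030. The groups of 1 member did not overlap at 2 days, lower with Wnt activation (2.91% of all genes), and 0 were higher without overlap (2.24%). At 5 days 0 members were lower without overlap (2.25%) and 0 higher (3.39%). Levels of 6 of the members went together from library to library, so these counts are not 7 separate observations. Because RNA was measured in bulk and not per cell, fewer adipocytes in a sample and less of a transcript per adipocyte cannot be told apart.

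Adipoq (ENSMUSG00000022878, GRCm38, chr16:23146536-23158028, plus strand) encodes adiponectin, among the most abundant adipocyte secretory products. It stood at 3629, 5056 and 2438 CPM in the P23 controls (replicates 1 to 3) and at 1404, 4008, 3067 and 4537 CPM at 2 days. The P26 values were 370, 3346 and 5259 CPM for controls and 1534, 2809, 3126, 3211 and 722 CPM for 5 days. The groups overlapped at both ages, and the lowest control and the lowest 5-day library were those lowest of their groups in summed adipocyte markers. On the log2 scale the fitted difference from controls was -0.19 ± 0.68 (SE) after 2 days and -0.39 ± 0.64 after 5 days (edgeR adjusted p = 1 and 0.999). Without the 3 libraries whose Axin2 goes against their label it was 0.044 and -0.90.

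Lep (ENSMUSG00000059201, chr6:29060220-29073877, plus strand), which encodes leptin, was the least tied to the rest. It was at 69.2, 268.0 and 176.3 CPM in the P23 controls and at 121.5, 89.3, 439.8 and 196.9 CPM at 2 days. For P26 the values were 32.1, 488.5 and 636.1 CPM in controls and 116.1, 377.3, 340.8, 212.8 and 115.6 CPM after 5 days. All 5 of the 5-day libraries lay within the range of the P26 controls, below the 2 high ones and above the low one. Its log2 fold change came to 0.31 ± 0.76 at 2 days and -0.73 ± 0.71 at 5 days (edgeR adjusted p = 1 and 0.946). Without the 3 libraries it was 0.11 ± 0.62 at 2 days and -1.26 ± 0.54 at 5 days (edgeR adjusted p = 1 and 0.715).

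The Lep level also went with the sex-linked transcripts among the controls. The control with Y-linked transcripts held 69.2 CPM at P23 against 176.3 and 268.0 CPM in the 2 without, and 32.1 CPM at P26 against 488.5 and 636.1 CPM. Retn had the same order among the controls, at 945 CPM with Y-linked transcripts against 1126 and 1934 CPM without at P23. At P26 Retn was at 103 CPM against 634 and 794 CPM. Every other member was also lowest in this P26 control, as for Car3 at 2535 CPM against 16198 and 17268 CPM. At P23 only Lep and Retn were lowest in the control with Y-linked transcripts, and Rbp4 and Car3 were highest in it. The 2 controls with Y-linked transcripts are also those with high Axin2. All 5 of the 5-day libraries and 3 of 4 of the 2-day libraries held Y-linked transcripts. The 2-day library without them held 121.5 CPM of Lep, within the 89.3 to 439.8 CPM of the 3 with such transcripts. With a term for these transcripts in the fit, the Lep log2 fold change was 1.42 at 2 days and 0.80 at 5 days, the latter opposite in sign to the value without it. The part of sex in the Lep values was not tested apart from the low controls.

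Retn (ENSMUSG00000012705, chr8:3655770-3660110, plus strand), which encodes resistin, stood at 945, 1934 and 1126 CPM in the P23 controls and at 365, 1370, 489 and 558 CPM at 2 days. Of the 4 libraries at 2 days, 3 lay below every P23 control and replicate 2 lay among them. Among the P26 libraries, Retn was at 103, 634 and 794 CPM without and at 196, 396.1, 448, 536 and 48.7 CPM with Wnt activation. Here 1 of the 5 Wnt libraries lay below every control. For Retn the log2 fold change came to -0.94 ± 0.70 at 2 days and -0.65 ± 0.66 at 5 days (edgeR adjusted p = 1 and 0.955). Without the 3 libraries it was -0.92 and -1.12. With 1 library left out it ran from -1.504 to -0.58 at 2 days and from -1.12 to -0.18 at 5 days. Grouping by the sample sheet gave -0.44 at 2 days.

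Nrg4 (ENSMUSG00000032311, chr9:55220222-55326844, minus strand) encodes a growth factor of the EGF family that binds the receptor ErbB4 and is released by brown and white adipocytes. It was at 121.8, 138.8 and 105.2 CPM in the P23 controls and at 24.7, 103.4, 39.4 and 52.1 CPM at 2 days. All 4 of the 2-day libraries lay below all 3 controls, although replicate 2 was close under the lowest. This was the 1 member of 7 whose groups did not overlap at 2 days, against the 2.91% of all genes. In the fit, Nrg4 had a log2 fold change of -1.15 ± 0.62, with a 95% interval of -2.45 to 0.15 (edgeR adjusted p = 0.919). It was -0.90 without the library labelled 2-day Wnt replicate 1 and -0.91 ± 0.71 without the 3 libraries. With the sample sheet's grouping, in which that first library is a control, it was -0.59 ± 0.68 and the groups overlapped. The summed adipocyte markers were also lower in all 4 of the 2-day libraries than in any P23 control. By the mean log2 CPM of the same markers these groups overlapped, at 8.64 to 9.69 against 9.66 to 9.94 in the controls. The part of these markers in the Nrg4 value was not tested. At P26 Nrg4 was at 23.1, 56.5 and 72.2 CPM without Wnt activation and at 7.96, 42.0, 54.0, 64.3 and 11.7 CPM with it. These groups overlapped, with 2 of 5 Wnt libraries below every control and a log2 fold change of -0.49 ± 0.59 (edgeR adjusted p = 0.974). That value was -0.82 without the 3 libraries and ran from -0.82 to -0.14 with 1 library left out. Nrg4 overlaps Fbxo22 on the opposite strand (mean 32.3 CPM), and since the use of strand is not given in the sources used here, reads of the 2 genes cannot be told apart where they overlap.

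Rbp4 (ENSMUSG00000024990, chr19:38116629-38125281, minus strand) encodes the carrier of retinol in blood. Its level was 982, 684 and 533 CPM in the P23 controls and 168, 721, 482 and 786 CPM at 2 days, with 2 of 4 Wnt libraries below the controls. Later, at P26, controls had 114, 616 and 813 CPM of Rbp4 and the 5-day group 319, 499, 602, 587 and 158 CPM, all 5 within the control range. Rbp4 had a log2 fold change of -0.44 ± 0.60 at 2 days and -0.25 ± 0.58 at 5 days (edgeR adjusted p = 1 and 0.999), and without the 3 libraries 0.12 and -0.71.

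Cfd (ENSMUSG00000061780, chr10:79890853-79892655, plus strand) encodes adipsin, the serine protease that cleaves factor B in the alternative complement pathway. It stood at 38014, 42058 and 17665 CPM in the P23 controls and at 6994, 39937, 30073 and 33479 CPM at 2 days. The library labelled 2-day Wnt replicate 1 was alone below the controls. P26 controls were at 5176, 20611 and 36524 CPM, and 5-day libraries at 12507, 21786, 26087, 29297 and 4204 CPM. Cfd had a log2 fold change of -0.24 ± 0.73 at 2 days and -0.15 ± 0.70 at 5 days (edgeR adjusted p = 1 and 0.999), and at 2 days it was 0.084 without the library labelled 2-day Wnt replicate 1. Without the 3 libraries the values were 0.21 and -0.59.

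Car3 (ENSMUSG00000027559, chr3:14863512-14872523, plus strand) encodes a carbonic anhydrase of the cytosol that is abundant in adipocytes and in slow skeletal muscle. It was at 26579, 24530 and 21428 CPM in the P23 controls and at 8740, 22377, 10934 and 15388 CPM at 2 days. The controls differed from each other by a CV of 10.7%, the least of any member in any group, and 3 of 4 Wnt libraries lay below all of them. Car3 at P26 was at 2535, 17268 and 16198 CPM in controls and, after 5 days, at 3732, 11481, 12056, 14672 and 3464 CPM. All 5 lay between the low control and the 2 high ones. Fitted, the log2 fold change of Car3 was -0.75 ± 0.65 at 2 days and -0.40 ± 0.62 at 5 days (edgeR adjusted p = 1 and 0.996). Without the 3 libraries these were -0.51 and -0.87. With 1 library left out the 5-day value ran from -0.87 (without the low control) to -0.028 (without P26 control replicate 2), and the sample sheet's grouping gave -0.32 at 2 days. Of 12 skeletal muscle markers 11 were tested, and their summed level was 127 to 1283 CPM over all libraries, with Myh7, the slow muscle myosin, at 0 in every library of 3 of the 4 groups. The library with the highest muscle sum, that labelled 2-day Wnt replicate 1, had a Car3 level of 8740 CPM, below every P23 control. The next highest, P26 control replicate 2 with 1222 CPM, had the highest Car3 level of the P26 libraries, and the part of muscle RNA was not tested.

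**Figure D2:**
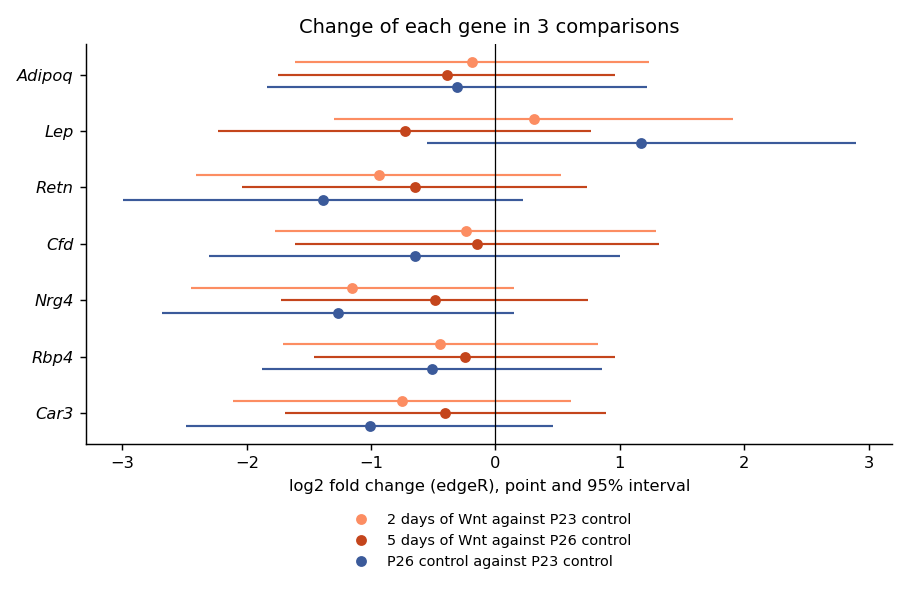
Fitted log2 fold change of each gene (x axis, edgeR, point and 95% interval) for 2 days of Wnt against P23 controls, 5 days against P26 controls, and P26 controls against P23 controls. Every interval includes 0, and Lep between the control ages is the farthest above it.

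The 5-day effect minus the 2-day effect was fitted as a contrast of its own, in which age and duration go together. It was called for 0 of 7 members (0% of all genes, edgeR), and the adjusted p was 1.000 for each. The unadjusted p was under 0.05 for 0 members and 969 genes, and DESeq2 called 149 genes, none a member. The differences ran from -1.04 ± 1.05 for Lep to 0.66 ± 0.86 for Nrg4 on the log2 scale. The mean of both effects was also called for 0 members (0% of all genes), with 1329 genes and 0 members at an unadjusted p under 0.05 and 321 genes called by DESeq2. It was closest to the threshold for Nrg4, at -0.82 ± 0.42 (edgeR adjusted p = 0.671).

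The control groups of P23 and P26 differ in age alone by their labels. Between them, edgeR called 0 of 7 members and 0% of all genes, with 0 members and 1182 genes at an unadjusted p under 0.05. DESeq2 called 286 genes and no member. Retn, Nrg4 and Car3 were lower in all 3 P26 controls than in any P23 control, without overlap, against 5.67% of all genes tested, and 0 members were higher without overlap (6.51%). The log2 differences, P26 minus P23, were -1.39 ± 0.76 for Retn, -1.27 ± 0.67 for Nrg4 and -1.01 ± 0.70 for Car3 (edgeR adjusted p = 0.709, 0.702 and 0.801). Without the library labelled P26 control replicate 1 they were -0.92, -0.94 and -0.55. Adipocyte marker sums overlapped between these groups. By the mean log2 CPM of the same markers they did not, at 9.66 to 9.94 for P23 and 7.54 to 9.64 for P26. The 10 keratinocyte markers summed to 36.3 to 381.5 CPM at P23 and 917 to 7530 CPM at P26, without overlap. The part of either marker set in these differences was not tested.

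Lep was the 1 member with a positive value, 1.17 ± 0.82 (edgeR adjusted p = 0.805). Of the P26 controls 2 held more Lep than any P23 control, and the library labelled P26 control replicate 1 held less than any. With 1 library left out the value ran from 0.60 (without P26 control replicate 3) to 1.70 (without that low library). Without the 3 libraries whose Axin2 goes against their label it was 1.32 ± 0.68 (edgeR adjusted p = 0.979). The comparison of control ages shares its samples with the 2-day and 5-day comparisons.

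Across libraries, 6 of the members went closely together and Lep less closely. Pearson's r between the log2 CPM of a member and the mean log2 CPM of the 12 adipocyte markers, over 15 libraries, was 0.976 for Car3, 0.911 for Nrg4 and 0.904 for Adipoq. It was 0.898 for Retn, 0.882 for Rbp4 and 0.859 for Cfd, but 0.496 for Lep. Spearman's rho was 0.793 to 0.907 for the 6 and 0.218 for Lep. Leaving out the 2 libraries farthest from the median marker level left r at 0.874 to 0.949 for the 6 and at 0.123 for Lep. These correlations describe the libraries, whose values share a depth, a composition and the scaling of each library, and no test was made of them.

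**Figure D3:**
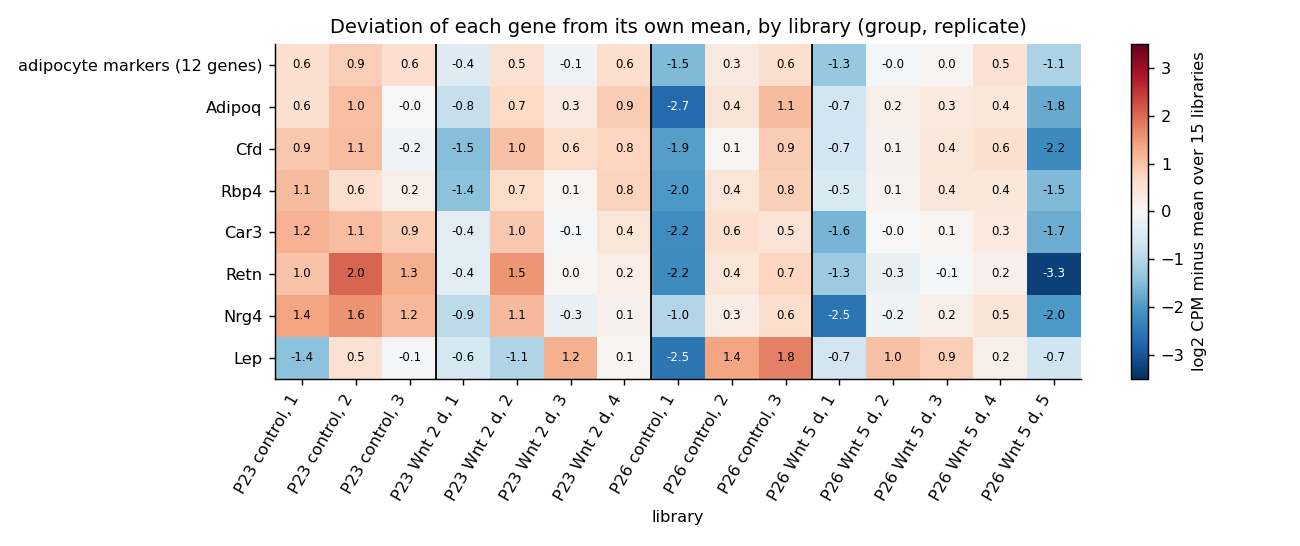
Deviation of log2 CPM from each gene's mean over the 15 libraries, by library (columns, ordered by group and replicate), for the adipocyte marker mean and the 7 genes. All lines, that of Lep included, are below their mean in the libraries labelled P26 control replicate 1, 2-day replicate 1 and 5-day replicates 1 and 5. The Lep line differs in the libraries labelled P23 control replicate 1 and 2-day replicate 2, which are below the mean for Lep only.

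**Figure D4:**
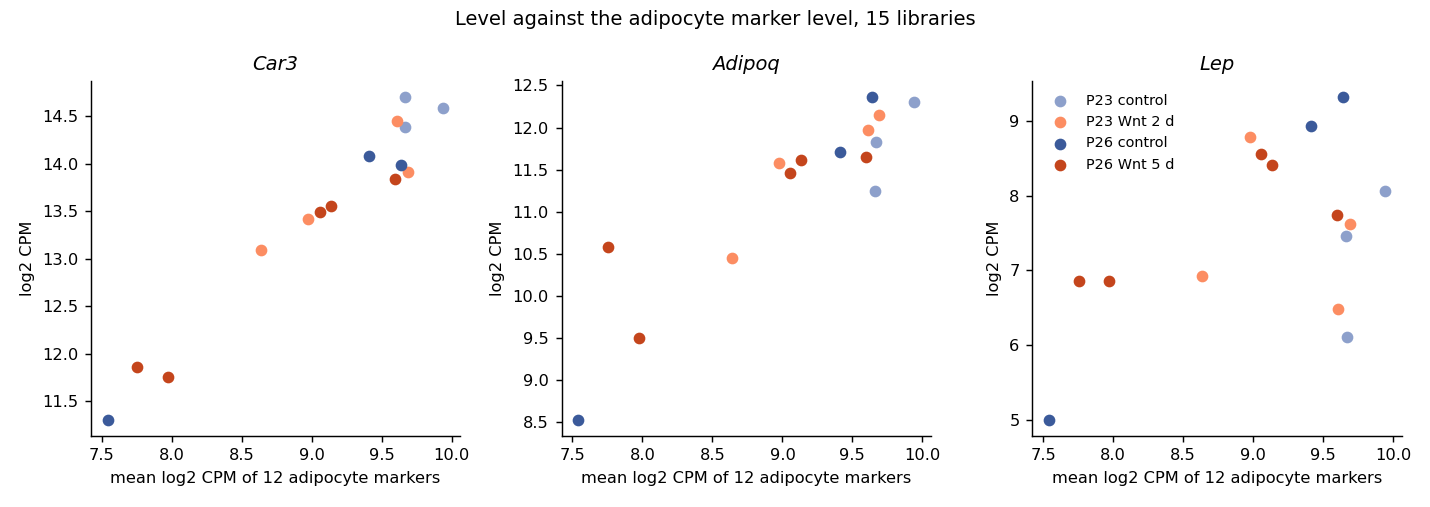
Level of Car3, Adipoq and Lep (log2 CPM, y axis) against the mean log2 CPM of the 12 adipocyte markers (x axis), 1 point per library, coloured by group. Car3 and Adipoq climb with the markers (r = 0.976 and 0.904), and Lep spreads widely among the libraries of high marker level (r = 0.496).

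Within the 6, closer pairs could be seen. Cfd and Rbp4 went together with r = 0.958, Adipoq and Rbp4 with 0.948 and Adipoq and Cfd with 0.942. Retn and Car3 had r = 0.938 and Nrg4 and Car3 had 0.918. A set of 3 libraries that stood apart in earlier results, labelled P26 control replicate 1, 2-day replicate 1 and 5-day replicate 5, was then left out. Without them Nrg4 and Car3 had r = 0.984 over 12 libraries, and Adipoq and Nrg4 had 0.727. Lep had r between 0.256 and 0.656 with the other 6 members, and between -0.14 and 0.25 without those 3 libraries. On deviations from the group means Lep came nearer, with r from 0.481 (Nrg4) to 0.780 (Adipoq), against 0.758 to 0.959 among the other 6.

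Counts were also set against Adipoq counts in the same library, which takes out the library scaling. The Lep count per Adipoq count ran from 0.0191 to 0.0723 in the P23 controls and from 0.0868 to 0.146 in the P26 controls, without overlap, against 5.24% of all other genes whose ratio to Adipoq was higher at P26 without overlap. It was 0.0223 to 0.143 at 2 days and 0.0663 to 0.160 at 5 days, overlapping the controls of the same age. The library labelled P26 control replicate 1, low in both genes, had the 0.0868, and the other P26 controls had 0.146 and 0.121. Taken as log2 CPM minus the adipocyte marker mean, Lep overlapped between the control ages. It was -3.55 to -1.87 at P23 and -2.53 to -0.33 at P26. Because the ratio was formed after the levels had been seen, no test is given.

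Nrg4 per Adipoq count was 0.0275 to 0.0431 in the P23 controls and 0.0115 to 0.0258 at 2 days, again without overlap. In that comparison 1.22% of genes had a lower ratio to Adipoq without overlap. Against the adipocyte marker mean, as a difference in log2 CPM, the same Nrg4 groups overlapped. They stood at -2.95 to -2.74 in the P23 controls and -4.01 to -2.91 at 2 days. At P26 Nrg4 per Adipoq count was 0.0625 in the library labelled control replicate 1 and 0.0169 and 0.0137 in the other controls. At 5 days it was 0.00519 to 0.0200. Retn per Adipoq count was 0.260 to 0.462 in the P23 controls and 0.123 to 0.342 at 2 days. It was 0.151 to 0.277 in the P26 controls and 0.0675 to 0.167 at 5 days, with overlap at both ages. Cfd per Adipoq count stayed between 4.98 and 14 in all 15 libraries, with group medians of 6.95 to 8.59.

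**Figure D5:**
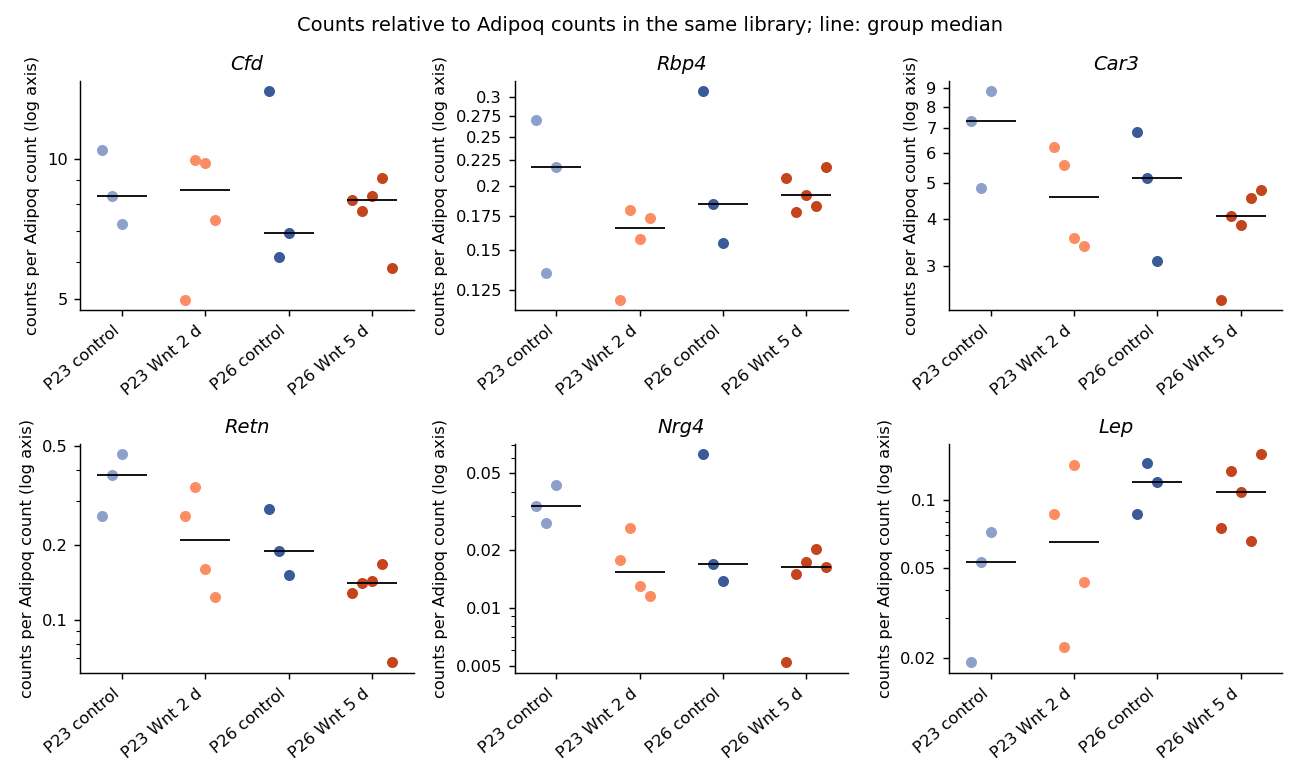
Counts of each gene per Adipoq count in the same library (log axis), by group, with a line at the group median. Nrg4 lies lower in all 2-day libraries (0.0258 or less) than in the P23 controls (0.0275 or more), Lep lies higher in the P26 than in the P23 controls, and Cfd has group medians of 6.95 to 8.59.

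The genes whose log2 CPM was most like each member's over the 15 libraries came from 9238 others whose mean level reached 10 CPM. For Lep they were Stc2, a secreted glycoprotein (r = 0.895), Naaa, a lysosomal amidase of fatty acid ethanolamides (r = 0.884), and Nnat, a small membrane protein of the endoplasmic reticulum (r = 0.876). On deviations from the group means these were 0.930, 0.915 and 0.950. For Adipoq they were 4732471J01Rik, Echdc3 and Ttyh2 (r = 0.972 to 0.976). For Retn they were Hadh, of mitochondrial fatty acid oxidation (r = 0.982), Atp5b, of ATP synthase, and Mrap, an accessory protein of the melanocortin 2 receptor.

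The genes most like Cfd were Fah, the last enzyme of tyrosine breakdown (r = 0.976), Aldh2, a mitochondrial aldehyde dehydrogenase, and Angptl4, an inhibitor of lipoprotein lipase. Angptl4 was also first for Rbp4 (r = 0.968), followed by Aifm2 and by Cfd itself. For Nrg4 they were Acsl1, which activates fatty acids (r = 0.959), Acacb, an acetyl-CoA carboxylase, and Bckdhb, of branched-chain amino acid breakdown. For Car3 they were Pygl, a glycogen phosphorylase (r = 0.976), Gm47162 and Bckdhb. All 21 correlations describe shared libraries and carry no test.

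Genes that act with the members were followed in 10 lists, of which 78 of 90 genes were tested. No gene of any list was called in any of the 5 comparisons (edgeR, against 0% of all genes). Among the receptors and their partners, 7 of 9 were tested. Adipor1 was at 154 ± 24 CPM in the P23 controls (SD, n = 3) and 160 ± 37 CPM at 2 days (n = 4), and at 148 ± 24 CPM in the P26 controls (n = 3) and 132 ± 28 CPM at 5 days (n = 5). Adipor2, the other receptor, was at 1023 ± 373, 712 ± 341.6, 476 ± 251 and 579 ± 288 CPM in the same order of groups, which overlapped in spread. Cap1, a binding partner of resistin in human cells, was at 170 ± 31 to 235 ± 28 CPM. The median log2 fold change of the list was 0.53 at 2 days and 0.28 at 5 days, against 0 and 0.030 for all genes.

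Chaperones and enzymes of the endoplasmic reticulum that fold secreted proteins, 6 of 7 in the table, had medians of 0.016 and -0.15. P4hb, a disulfide isomerase, had a log2 fold change of 0.12 ± 0.33 at 2 days and 0.22 ± 0.32 at 5 days, and Pdia3, another, had -0.086 ± 0.35 and 0.40 ± 0.34. Hspa5, the chaperone BiP, had -0.36 ± 0.43 and -0.53 ± 0.41. Each of these lay within 2 SE of 0.

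All 9 listed relatives of adiponectin, the C1q/TNF-related proteins, were tested, and 7 of 9 had a value above 0 in each comparison (medians 0.87 and 0.69). C1qtnf1 was at 24.7 ± 10.1 CPM in the P23 controls and 79.3 ± 47.3 CPM at 2 days, a log2 fold change of 1.68 ± 0.53 (edgeR adjusted p = 0.919), and at 86.5 ± 53.8 and 110 ± 21 CPM at P26. C1qtnf6 had 0.87 ± 0.51 at 2 days and 0.97 ± 0.49 at 5 days, and C1qtnf12 had -0.58 ± 0.67 and -0.51 ± 0.64. Stromal marker sums moved the same way, from 9780 to 10940 CPM in the P23 controls to 10580 to 29480 CPM at 2 days, with 5715 to 25680 and 16210 to 82390 CPM at P26. Their part in the C1qtnf values was not tested.

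Of the resistin family 1 of 3 genes was tested. Retnla was at 5.66 ± 3.04 CPM in the P23 controls and 72.5 ± 105 CPM at 2 days, and at 53.3 ± 31.3 and 22.9 ± 17.5 CPM at P26, so that its values at the 2 ages had opposite signs (3.68 ± 1.11 and -1.22 ± 0.90). Neither was called (edgeR adjusted p = 0.919 and 0.859). Macrophages are a known source of Retnla, and the 10 leukocyte markers summed to 240 to 276 CPM in the P23 controls, 264 to 923 CPM at 2 days, 233 to 1827 CPM in the P26 controls and 331 to 1514 CPM at 5 days. Their part in the Retnla values was not tested. Of the other neuregulins 1 of 3 was tested, Nrg2, at 0 CPM in all P23 controls and at most 3.04 CPM as a group mean elsewhere.

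In the retinoid list, all 8 genes were tested, with medians of 0.55 and 0.54. Rbp7 had log2 fold changes of 0.38 ± 0.91 and 0.44 ± 0.88, and Aldh1a1, which makes retinoic acid, 0.72 ± 0.45 and 0.63 ± 0.43.

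Among the other carbonic anhydrases 12 of 15 were tested (medians -0.088 and 0.062). Car5b, a mitochondrial form, was at 518 ± 97 and 393.8 ± 176.3 CPM at P23 and at 292 ± 142 and 246 ± 137 CPM at P26. Car4 and Car13 had group means of 6.11 to 31.8 CPM, and the log2 fold changes of all 3 lay between -0.50 and -0.067. In the alternative complement pathway, all 4 partners of Cfd were tested. C3, the central component, was at 8255 ± 3003 and 5916 ± 3195 CPM at P23 and at 3498 ± 2105 and 3400 ± 769 CPM at P26. Cfb, the substrate of adipsin, had log2 fold changes of 0.20 ± 0.50 and -0.11 ± 0.47. Cfp, properdin, had 1.43 ± 0.69 and -0.73 ± 0.62, with 19.6 ± 2.37 and 53.1 ± 16.7 CPM at P23.

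Of 23 other secreted adipocyte products 21 were tested, with 10 below 0 at 2 days (median 0.34) and 16 below 0 at 5 days (median -0.29). Angptl4 had log2 fold changes of -0.23 ± 0.60 and -0.29 ± 0.57, and Gpx3, plasma glutathione peroxidase, had 0.47 ± 0.51 and -0.32 ± 0.48. All 9 transcriptional regulators of adipocyte genes were tested, with 8 below 0 at 2 days (median -0.53) and 6 at 5 days (median -0.14). Cebpa, a C/EBP factor of mature adipocytes, had -0.64 ± 0.63 and -0.13 ± 0.60, Cebpb had -0.73 ± 0.40 and -0.43 ± 0.38, and Srebf1, a regulator of lipid synthesis, had -1.11 ± 0.58 and -0.16 ± 0.56. None was called (edgeR adjusted p of at least 0.919 for these 3 genes at 2 and 5 days).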

How the data were processed

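Counts per gene were used as the authors deposited them, and each was taken as raw because all values were whole numbers with unequal totals. Per the submitters' processing notes, Trimmomatic 0.39, SAMtools 1.9, Cufflinks 2.2.1 and DESeq2 1.40.1 were used, with the builds mm10 and GRCm38. Which aligner and counting tool were used, and whether by strand, is not given in the sources used here. Per the labels' protocols, libraries were made from total RNA with the Universal Plus mRNA-SEQ kit.

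The 15 libraries were fitted together in edgeR 4.0.16 (R 4.3.3; filterByExpr, TMM scaling, robust quasi-likelihood F test, 4 groups), with two-sided p-values, Benjamini-Hochberg adjustment over 16935 genes and a threshold of 0.05. The SE is the log2 fold change divided by the square root of F. RPKM used summed exon lengths of GENCODE release 21, in which 35300 of 35373 gene IDs were found, 99.1% of them with the same coordinates. Log2 CPM used a prior count of 2. The script was tested on simulated counts. Alternatives included DESeq2 1.42.0 and limma-voom (limma 3.58.1). The members and lists were chosen with earlier results of these data known. Named were the 7 members, the 3 genes most like each, and the 3 of highest mean CPM in each list, of which 2 are not reported here. Fitted errors cover the spread between these libraries.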

Additional observations from a re-analysis of the deposited data

Results flagged for a closer look

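Cfd in the 2-day group was at 6994 CPM in the library labelled 2-day Wnt replicate 1, far below the 30073 to 39937 CPM of the other 3 libraries. On the log2 CPM scale, not in CPM, the gap to the nearest of them made up a share of 0.837 of the group's whole range. That library also held 31.7% mitochondrial counts and 4463 CPM of hair follicle markers, and its sample sheet entry differs from its title. The part of these in the Cfd value was not tested. Groups of 3 libraries were not examined in this way, and chance alone marks about 1 in 20 groups.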

How the results depend on the processing

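No member was called under any of 28 alternatives. At 2 days, at 5 days and between control ages these gave 588 values (smallest adjusted p 0.163), of which 553 kept their direction. Many of them leave out a library outside the comparison, which hardly moves the value, so the 553 does not measure stability. Over the alternatives, the members below 0 ran from 1 to 6 for the difference of the effects (2 in the main fit). For the mean of both effects they ran from 3 to 7 (7 in the main fit). Counts of called genes, 0 in each comparison with edgeR, were 149 (2 days), 200 (5 days), 321 (mean), 149 (difference) and 286 (control ages) with DESeq2. With limma-voom weights they were 226 at 5 days, 11 for the mean and 134 between ages. Without 3 libraries that stood apart earlier (P26 control 1, 2-day 1, 5-day 5) they were 7 at 5 days and 8 between ages. Chosen after seeing the data, leaving out the 4 libraries lowest in adipocyte markers gave 43 at 5 days, 2 for the mean, 28 for the difference and 96 between ages. Also chosen then, leaving out the 3 libraries whose Axin2 goes against their label gave 2 at 2 days, 11 at 5 days and 18 for the mean. Leaving out 1 library gave 0 at 2 days, 0 to 4 at 5 days, 0 to 3 for the mean, 0 to 2 for the difference and 0 to 5 between ages, highest without P26 control replicate 2 at 5 days, for the mean and for the difference, and without 5-day replicate 5 between ages.

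Signs turned as follows, and the cause was not tested. Scaling to adipocyte markers, which moved the median of all genes to 0.62 (2 days), 0.16 (5 days) and 1.05 (ages), gave Adipoq 0.32, 0.15 and 0.096, Cfd 0.25 and 0.21 (2 and 5 days) and Rbp4 0.21 (5 days). Of these, Cfd and Rbp4 at 5 days lay above that median and the others below. At 2 days Nrg4, Retn and Car3 were -0.70, -0.44 and -0.26. With a Y-linked term Adipoq was 0.034 at 2 days, and Lep 0.80 and Retn 0.015 at 5 days. With the sample sheet's grouping Adipoq was 0.31, Cfd 0.40 and Rbp4 0.16 at 2 days. Without either set of 3 or 4 low libraries, Adipoq was 0.081 and 0.080 and Cfd 0.095 at 2 days, and Adipoq 0.21 between ages. Without the 3 Axin2 libraries Adipoq was 0.044, Cfd 0.21 and Rbp4 0.12 at 2 days, and Adipoq 0.18 and Rbp4 0.21 between ages. Adipoq between ages was 0.033 with limma-voom. With 1 library left out, ranges that crossed 0 were -0.44 to 0.099 (Adipoq), -0.33 to 0.79 (Lep) and -0.56 to 0.084 (Cfd) at 2 days, -0.90 to 0.30 (Adipoq), -0.59 to 0.54 (Cfd) and -0.71 to 0.25 (Rbp4) at 5 days, and -0.998 to 0.20 (Adipoq) between ages.

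Replicate numbers were not taken to pair the libraries. Same-numbered libraries had correlations of -0.00936 to 0.16, which alone do not show whether they were paired. With the replicate block, 5 genes were called between ages and 0 in the 4 other comparisons, Cfd at 5 days was 0.15 and Lep between ages 0.77.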
